A study of Mus musculus with 8 samples.

Results

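The genes described here are 31 genes of cholesterol supply in 2 opposed arms: enzymes and other targets of SREBP2, which raise cholesterol, and receptors and targets of LXR, which remove it. Their regulators and the esterifying enzyme gene Soat1 were listed with them. A gene was kept where a probe named for it exceeded a noise limit of 36.7 intensity units on at least 2 arrays. Of the 31 genes, 24 met this rule, out of 8757 named genes and 10187 tested items (genes, and probes without a gene name). RNA came from cells described as macrophages grown for 5 days from bone marrow of female 129/BL6 mice in L929-conditioned medium. The mice were wild type, or carried the knock-in labelled IRAK4 KI, which leaves the signalling kinase IRAK4 without activity. Cells were left without treatment or loaded for 24 hours with acetylated low-density lipoprotein (acLDL) at 100 ug/ml, and each of the 4 groups had 2 Illumina beadchips. The labels give no age, no pooling and no separate cultures or animals for the 2 samples of a group. Each p-value therefore rests on the spread between the 2 arrays within groups, which can be technical. This spread was pooled over the 4 groups and moderated by limma toward that of all items.

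Cells balance cholesterol through 2 sensors. When sterols are scarce in the endoplasmic reticulum, the escort protein SCAP carries the precursor of SREBP2 to the Golgi, where it is cut into a transcription factor that turns on the synthesis enzymes. When sterols are plentiful, SCAP is held back by the INSIG proteins. Oxysterols formed from excess cholesterol bind the LXR receptors, which turn on exporters such as ABCA1 and ABCG1 and lipid-handling genes. Macrophages take up acLDL through scavenger receptors, digest it in lysosomes and store or export its cholesterol, so a lipoprotein load is classically paired with lower SREBP2 targets and higher LXR targets.

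Promoters of 4 members are shown because each carries a pattern described below: Hmgcs1 holds the single sterol regulatory element found among the members, Insig1 is the member that differed most between genotypes, Mvk is the enzyme gene with the largest acLDL change in IRAK4 KI, and Lpcat3 is the LXR target whose acLDL change differed most between genotypes. Each sequence is the RefSeq window of 250 bases before and 50 after the annotated start, in build GRCm38.p6, read 5′ to 3′ on the strand of the gene. The windows are chr13:119690101-119690400 (plus strand) for Hmgcs1, chr5:28071162-28071461 (plus strand) for Insig1, chr5:114444019-114444318 (plus strand) for Mvk and chr6:124662854-124663153 (plus strand) for Lpcat3. Capitals mark the sterol regulatory element TCACNCCAC, by which SREBPs bind, and the NF-Y box CCAAT, in either orientation.
Hmgcs1: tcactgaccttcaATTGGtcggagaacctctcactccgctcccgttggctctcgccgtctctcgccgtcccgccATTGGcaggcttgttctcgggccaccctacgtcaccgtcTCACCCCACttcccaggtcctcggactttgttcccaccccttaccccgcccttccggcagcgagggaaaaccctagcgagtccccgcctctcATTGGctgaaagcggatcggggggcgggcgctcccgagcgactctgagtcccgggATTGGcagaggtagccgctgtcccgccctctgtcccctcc
Insig1: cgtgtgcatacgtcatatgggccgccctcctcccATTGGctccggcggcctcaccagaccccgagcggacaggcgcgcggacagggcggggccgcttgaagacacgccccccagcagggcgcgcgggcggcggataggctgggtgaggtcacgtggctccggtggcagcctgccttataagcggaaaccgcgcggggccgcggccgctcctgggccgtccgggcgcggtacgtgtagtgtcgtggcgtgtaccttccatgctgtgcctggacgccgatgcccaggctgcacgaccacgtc
Mvk: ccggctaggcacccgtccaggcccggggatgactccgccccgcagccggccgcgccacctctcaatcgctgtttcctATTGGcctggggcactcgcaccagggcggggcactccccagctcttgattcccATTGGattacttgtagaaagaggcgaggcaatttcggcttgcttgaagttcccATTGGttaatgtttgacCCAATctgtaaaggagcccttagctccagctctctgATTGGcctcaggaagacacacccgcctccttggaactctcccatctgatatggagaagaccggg
Lpcat3: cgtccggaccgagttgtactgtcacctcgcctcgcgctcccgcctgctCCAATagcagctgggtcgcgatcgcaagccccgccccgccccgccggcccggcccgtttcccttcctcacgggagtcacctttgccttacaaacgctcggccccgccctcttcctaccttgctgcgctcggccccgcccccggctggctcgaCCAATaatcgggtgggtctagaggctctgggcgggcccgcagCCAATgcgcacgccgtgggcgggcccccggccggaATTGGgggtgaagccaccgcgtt
The element of Hmgcs1 reads TCACCCCAC and begins 137 bases upstream of the start. The window of Hmgcs1 holds 4 NF-Y boxes, that of Insig1 holds 1, that of Mvk holds 5 and that of Lpcat3 holds 4.

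RefSeq windows were at hand for 25 of the 31 members, with 35 windows in all. There were 6 members with several windows, among them Dhcr7 in the SREBP2 arm and Apoe and Srebf1 among the LXR targets. The shares below are of windows, not of genes, and windows of a gene are not independent. An NF-Y box lay in 12 of the 15 windows of SREBP2 arm genes (80%) and in 5 of the 10 windows of LXR targets (50%), against 37.4% of all 32851 windows. The GC box GGGCGG, a site of Sp1 proteins, lay in 14 of 15 windows of SREBP2 arm genes (93.3%) and in 6 of 10 of LXR targets (60%), against 35.7% of all. All windows of Apoe and a window of Dhcr7 held neither box, so genes with several windows weigh on these shares. NF-Y and Sp1 are known partners of SREBPs at sterol-responsive promoters. The sterol regulatory element lay in 1 of 35 member windows (2.86%) and in 1.24% of all, and the LXR element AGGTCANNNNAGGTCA in 0 of 35 and in 0.0152% of all. The 4 motifs, searched on both strands, overlapped each other at 0 places in the member windows. These counts describe letters in short windows, and a window without a match says nothing of the factor.

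The arrays gave 24613 probes each, of which 11026 to 11033 exceeded the noise limit. Across genes, the 2 arrays of a group correlated at 0.982 to 0.986, and 3 of 8 arrays had their nearest match within their own group. Marker genes went against the labelled cell type. All 6 alveolar type II markers with a probe were above noise on all 8 arrays, at a summed intensity of 85673 to 100232, as were both airway club markers with a probe (44906 to 49912). Of 12 macrophage markers with a probe, 8 exceeded the limit on each of the 8 arrays, and 4 did so on no array: Itgam, Fcgr1 and the scavenger receptor genes Msr1 and Cd36, of which Msr1 encodes a receptor for acLDL. The 8 above noise differed widely in level. Lyz2 lay between 16521.1 and 32663.3 intensity units, Sirpa between 4496.1 and 6522.1, Adgre1 between 335.2 and 600.3 and Aif1 between 81.4 and 154.6. Hepatocyte markers, which would bring much sterol and apolipoprotein RNA, were above noise on 0 of 8 arrays for 4 of 4 genes. The groups are therefore named as the labels have them, and no member's level is assigned to a cell type. In bulk RNA, fewer cells of a type and less RNA per cell cannot be told apart.

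No member passed the test for a response to acLDL in either genotype. In limma's test on log2 intensities, with Benjamini-Hochberg adjustment over all 10187 items, 0 of 24 members passed in wild type, where 0.177% of all items did, and 0 of 24 in IRAK4 KI, where 0.0196% did. At an unadjusted p under 0.05 the count was 1 of 24 in wild type (12% of all items) and 0 of 24 in IRAK4 KI (6.46% of all items). The 1 member was Idi1, which met the noise rule through the wild type acLDL arrays alone. The median log2 change over the members was -0.043 in wild type and -0.027 in IRAK4 KI, beside 0.0091 and -0.0077 over all items. On the scale used, the 95% intervals of all 24 changes, in both genotypes, lay inside a 2-fold change in either direction. The lowest bound was -0.95 for Lpl in wild type and the highest 0.80 for Lpl in IRAK4 KI. This scale compresses the folds of dim probes, so the 2-fold limit may not hold for them on another. The log2 change of the dim gene Mvk in IRAK4 KI ran from -0.76 to -0.31 over other processing settings. The SE of a change lay between 0.098 and 0.27 over the members.

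**Figure D1:**
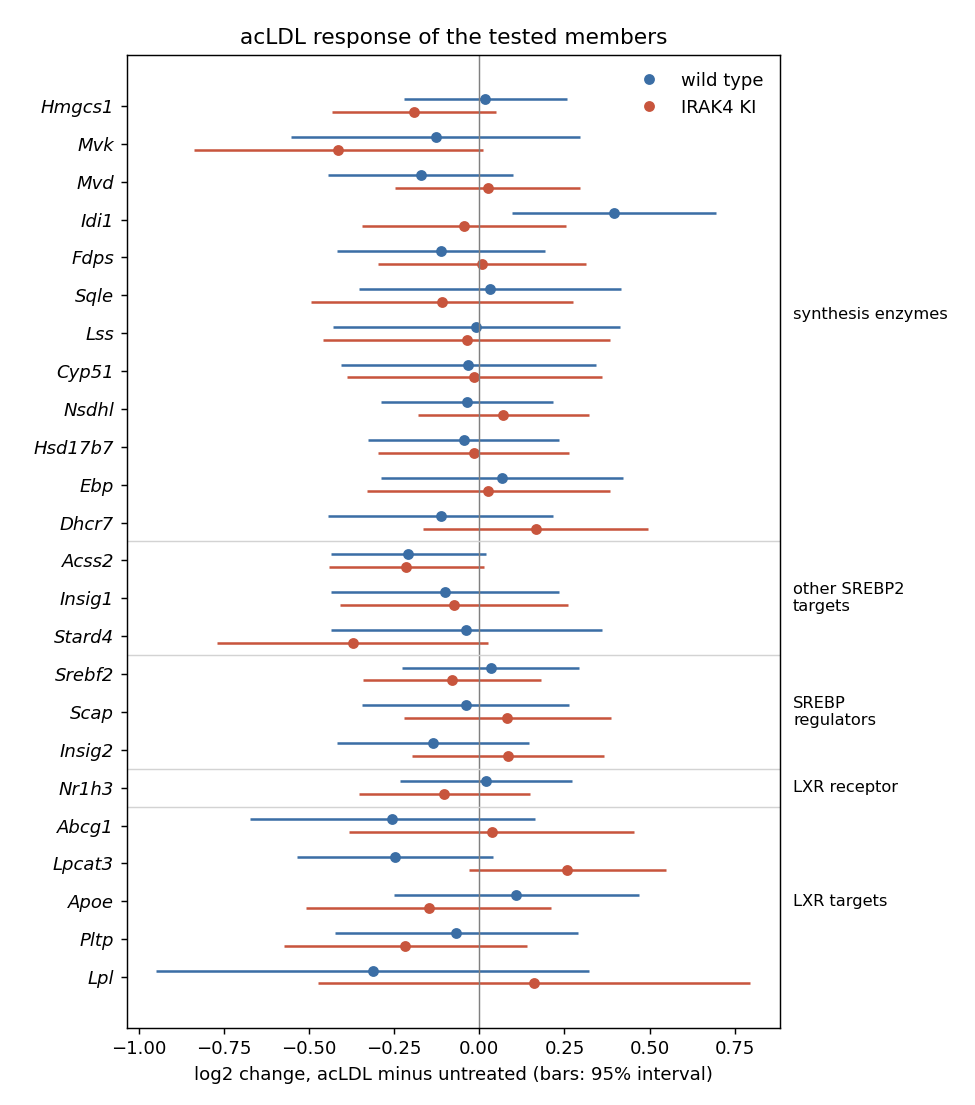
Log2 change of intensity, acLDL minus untreated, for the 24 tested members in wild type (blue) and IRAK4 KI (red), points with 95% intervals from the limma fit of 8 arrays (2 per group), ordered by role. Of the 48 intervals, the one of Idi1 in wild type, whose untreated arrays were not above noise, lies wholly above 0. None reaches a 2-fold change on this scale, which compresses the folds of dim probes.

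Among the 14 listed enzymes of the synthesis pathway, 12 could be tested. Acat2, an acetoacetyl-CoA thiolase, has no probe in the annotation used, and the probe of Fdft1, the squalene synthase, lay between -17.7 and -0.4 intensity units and above noise on 0 of 8 arrays. In wild type 4 of the 12 had a positive and 8 a negative log2 change (median -0.034), where 52.1% of all items were positive, and in IRAK4 KI 5 and 7 (median -0.016), where 47.9% were. Groups that did not overlap were counted too. In wild type 1 enzyme gene was higher and 1 lower with acLDL, beside 21.9% and 19.9% of all items. The higher one was Idi1, whose difference was in part required by the noise rule. In IRAK4 KI 0 were higher and 3 lower, beside 18.3% and 20.7%.

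Hmgcs1 encodes the cytosolic HMG-CoA synthase at the entry of the pathway. Its intensity was 6748.4 and 7354 on the untreated wild type arrays and 6994.5 and 7272 with acLDL, and 7451.4 and 7206 on the untreated KI arrays against 6630.4 and 6190.2 with acLDL. The wild type groups overlapped, while both KI arrays with acLDL lay below all other arrays. The log2 change was 0.018 in wild type (SE 0.10, limma adjusted p = 0.971) and -0.19 in IRAK4 KI (SE 0.10, limma adjusted p = 0.790). The promoter shown above for Hmgcs1 is the one with the sterol regulatory element.

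Mvk, the mevalonate kinase, was dim and above noise on 7 of 8 arrays. Its values were 49.9 and 83.1 in untreated wild type, 69.7 and 43.9 in wild type with acLDL, 63 and 75.1 in untreated KI and 46.6 and 35.2 in KI with acLDL. The KI groups alone did not overlap, and 1 of the 2 KI acLDL arrays was above noise. The log2 change in IRAK4 KI was -0.41 (SE 0.18, 95% interval -0.84 to 0.010, limma adjusted p = 0.771), and in wild type it was -0.13 (SE 0.18, limma adjusted p = 0.827). Mvd, which decarboxylates mevalonate diphosphate, had 77.1 and 72.5 in untreated wild type and 61.5 and 61.3 with acLDL, against 68.8 and 49.9 in untreated KI and 58.3 and 63.1 with acLDL. Its wild type groups did not overlap (log2 change -0.17, SE 0.12, limma adjusted p = 0.601) and its KI groups did.

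Idi1, the isomerase that makes the allylic isoprenoid unit, was the member with an unadjusted p under 0.05 in wild type. Its intensity was 37.1 and 57.9 on the wild type acLDL arrays and lay between 20.4 and 26.3 on the other 6. It passed the noise rule through those 2 arrays alone, so its difference was in part required by the rule, and it stands closest to the limit among the members kept. The nearest probes left out reached 36.1 (a second probe of Nr1h3) and 34.3 (a second probe of Nsdhl) on their second-highest array. Of the 2 arrays, the one at 37.1 stood just above the limit of 36.7. Idi1 was not above noise in untreated wild type, and the acLDL arrays are those that selected it. No size of its difference is therefore given. The measured log2 means were 6.11 untreated and 6.51 with acLDL (limma adjusted p = 0.306).

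The other 8 enzyme genes were above noise on all 8 arrays. They are Fdps (farnesyl diphosphate synthase), Sqle (squalene epoxidase), Lss (lanosterol synthase), Cyp51 (lanosterol demethylase), Nsdhl and Hsd17b7 (which act in the removal of sterol methyl groups), Ebp (a sterol isomerase) and Dhcr7 (which makes cholesterol in the last step). Their log2 changes lay between -0.11 and 0.066 in wild type and between -0.11 and 0.17 in IRAK4 KI. Dhcr7 was at the lower end in wild type and, at 0.17, at the upper end in IRAK4 KI, from intensities of 95.6 to 137.3 over the 8 arrays. Sqle had a brighter probe of 816.8 to 1159.9 and a dimmer one of 34.5 to 83.3, and the KI groups of both probes were lower with acLDL without overlap (log2 change -0.11 and -0.23, limma adjusted p = 0.920 and, with every probe on its own, 0.830). Of the 3 Nsdhl probes, 1 was above noise, at 944.8 to 1096.9.

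The 3 other SREBP2 targets were lower in mean with acLDL in both genotypes, and none passed the test. Acss2, which makes acetyl-CoA from acetate for lipid synthesis, had 800 and 852.3 in untreated wild type against 710.2 and 707.3 with acLDL, and 854.7 and 901.6 in untreated KI against 752.9 and 748.6 with acLDL. Neither pair of groups overlapped, and the size was alike in the 2 genotypes. The log2 change was -0.21 in wild type (SE 0.098, 95% interval -0.44 to 0.019, limma adjusted p = 0.468) and -0.21 in IRAK4 KI (SE 0.098, 95% interval -0.44 to 0.014, limma adjusted p = 0.776). The difference between these effects was -0.0056, with an interval of -0.33 to 0.32. A second, dim probe of Acss2 was above noise on 0 of 8 arrays.

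Stard4 encodes a sterol carrier protein of the cytosol. Its values were 1669.7 and 1512.4 in untreated wild type, 1416.9 and 1687.9 in wild type with acLDL, 1712.1 and 1479.1 in untreated KI, and 1433.3 and 1037.1 in KI with acLDL. The wild type groups overlapped and the KI groups did not, with KI acLDL replicate 2 the lowest of the 8 arrays. The log2 change in IRAK4 KI was -0.37 (SE 0.17, 95% interval -0.77 to 0.025, limma adjusted p = 0.782), and in wild type -0.038 (SE 0.17, limma adjusted p = 0.961).

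Over the 15 tested genes of the SREBP2 arm the median log2 change was -0.038 in wild type (4 positive, 11 negative) and -0.038 in IRAK4 KI (5 positive, 10 negative). Higher and lower groups without overlap numbered 1 and 2 in wild type, beside 21.9% and 19.9% of all items, and 0 and 5 in IRAK4 KI, beside 18.3% and 20.7%. The 1 higher in wild type was Idi1, which met the noise rule through the wild type acLDL arrays alone. The wild type median rested on single arrays: it was 0.046 without acLDL replicate 1 and -0.16 without acLDL replicate 2. The mean deviation of the arm from its own average over 8 arrays, on the log2 scale, was -0.0255 and 0.0211 on the untreated and -0.103 and 0.0336 on the acLDL wild type arrays, so these groups overlapped. In KI it was 0.0299 and 0.0867 untreated and 0.0141 and -0.0571 with acLDL, without overlap. These arm means include Idi1, which raises them on the wild type acLDL arrays, and they were not taken without it.

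**Figure D2:**
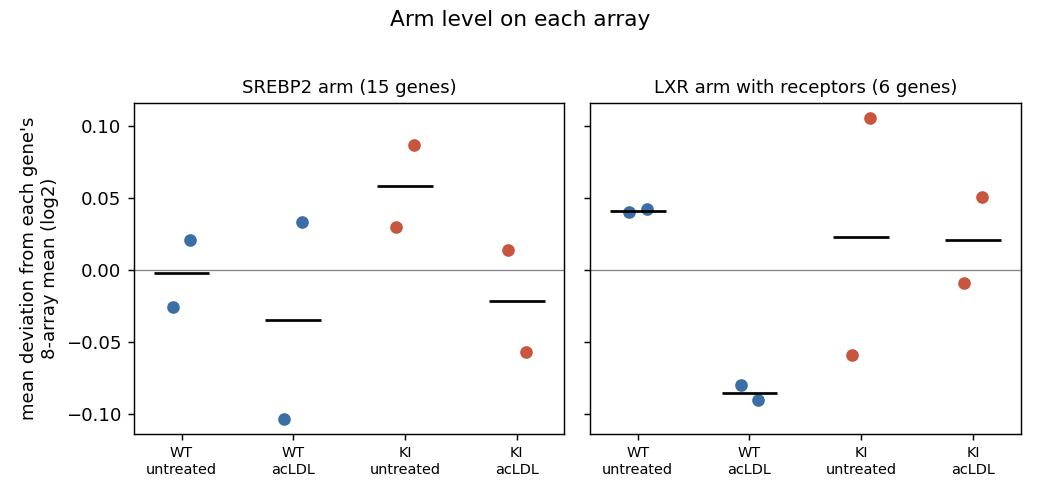
Mean deviation of the tested genes of each arm from their own mean over the 8 arrays (log2), for each array, with the mean of the 2 arrays of a group as a bar. The SREBP2 arm includes Idi1, which met the noise rule through the wild type acLDL arrays alone. The means of the 15 SREBP2 arm genes overlap between treatments in wild type and not in IRAK4 KI. Those of the 6 LXR genes are lower with acLDL in wild type (-0.0799 and -0.0898 against 0.0402 and 0.042) and overlap in IRAK4 KI. Among all single items, 41.8% in wild type and 39% in IRAK4 KI did not overlap between treatments. A difference between genotypes in these arm means was not tested.

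The genes that sense sterols and control SREBP processing did not pass the test for acLDL. Scap had 345.4 and 311.4 in untreated wild type, 324.6 and 311 with acLDL, 366.1 and 281.5 in untreated KI and 343.1 and 342.2 with acLDL, so the groups overlapped in both genotypes. The retention gene Insig2 had 543 and 520.7 in untreated wild type against 431.1 and 532.8 with acLDL, and 540 and 504.7 in untreated KI against 570.8 and 542.5 with acLDL. Its log2 change was -0.14 in wild type (SE 0.12, limma adjusted p = 0.699) and 0.085 in IRAK4 KI (SE 0.12, limma adjusted p = 0.913). A second Insig2 probe, at 407.3 to 464.5, had log2 changes of 0.028 and 0.090, and a further one was above noise on 0 of 8 arrays. Srebf2, which encodes SREBP2, had log2 changes of 0.033 and -0.080 (SE 0.11 each). The part of SREBP2 control that acts by cutting the protein is not measured by RNA.

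Of the LXR arm, 6 of 10 listed genes could be tested. Nr1h2, which encodes LXR beta, has no probe in the annotation used. The probes of Abca1, the exporter to lipid-poor apolipoprotein (-20.3 to 0.8 intensity units), Srebf1, which drives fatty acid synthesis (-29.7 to -14.4), and Mylip, a ligase that marks lipoprotein receptors for breakdown (2 probes, -21.9 to 3.7), were above noise on 0 of 8 arrays. Whether these classic LXR targets responded was thus not measurable here, in treated or untreated cells. Soat1, which esterifies cholesterol for storage, also has no probe.

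Nr1h3, which encodes LXR alpha, lay between 1255.2 and 1486.4 over the 8 arrays. Its values were 1350.2 and 1314.3 in untreated wild type, 1454.9 and 1255.2 with acLDL, 1478.1 and 1486.4 in untreated KI and 1405.9 and 1349 with acLDL. The log2 change was 0.020 in wild type and -0.10 in IRAK4 KI (SE 0.11 each, limma adjusted p = 0.968 and 0.882), and the KI groups alone did not overlap, with both acLDL arrays the lower ones. A second probe of Nr1h3 was above noise on 1 array.

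Abcg1, the exporter to high-density lipoprotein, had 4324.5 and 3094.8 in untreated wild type, 3202.2 and 2919.6 with acLDL, 2745.1 and 3439.3 in untreated KI and 2978.7 and 3336.3 with acLDL. One untreated wild type array stood above the other 7, and the groups overlapped in both genotypes. The log2 change in IRAK4 KI was 0.036 (SE 0.18, 95% interval -0.38 to 0.45, limma adjusted p = 0.987), and the interval in wild type was -0.67 to 0.16. Lpl, the secreted lipoprotein lipase, had 2513.8 and 2448.8 in untreated wild type and 1649.7 and 2392.9 with acLDL, against 1572.8 and 2186.2 in untreated KI and 1597.3 and 2702.6 with acLDL. Its spread within groups was the widest of the members (log2 change -0.31 in wild type and 0.16 in IRAK4 KI, SE 0.27 each, limma adjusted p = 0.693 and 0.930), and a second probe of Lpl was above noise on 0 of 8 arrays.

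Lpcat3, an acyltransferase that puts polyunsaturated chains into membrane phospholipids, had opposite acLDL changes in the 2 genotypes. Its intensity was 206 and 230.2 in untreated wild type and 174.3 and 178.8 with acLDL, and 192 and 170.3 in untreated KI and 202 and 250.2 with acLDL. With acLDL both wild type arrays were below both untreated ones, and both KI arrays above both untreated ones. The log2 change was -0.25 in wild type (SE 0.12, 95% interval -0.54 to 0.041, limma adjusted p = 0.497) and 0.26 in IRAK4 KI (SE 0.12, 95% interval -0.030 to 0.55, limma adjusted p = 0.785). The test of the difference between the effects gave 0.51 (SE 0.18, 95% interval 0.098 to 0.91), which did not pass over all items (limma adjusted p = 0.554). The neutrophil marker list was ordered the same way as Lpcat3 in its sum, though not in every gene: the summed intensity was 3749 to 4059 in untreated and 1659 to 2275 in acLDL wild type arrays, and 3217 to 3667 in untreated and 4859 to 5342 in acLDL KI arrays. Of 5 with a probe, 4 were above noise on all 8 arrays and Ngp on 0 of 8. The log2 changes with acLDL in wild type and IRAK4 KI were -1.04 and 0.87 for S100a8 and -0.58 and 0.68 for S100a9, but 0.15 and 0.49 for Camp and -1.28 and -0.45 for Ltf. Their part in the Lpcat3 difference was not tested.

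Pltp, the phospholipid transfer protein of plasma, had 502.6 and 580.7 in untreated wild type, 553.6 and 475.9 with acLDL, 648.6 and 708 in untreated KI and 663.8 and 500.4 with acLDL. Its groups overlapped between treatments in both genotypes (log2 change -0.068 and -0.22, SE 0.15 each), and a second, dimmer probe had log2 changes of -0.24 and -0.089. Apoe, the apolipoprotein that macrophages secrete with cholesterol, lay between 1150.2 and 1692.6 over the 8 arrays, with log2 changes of 0.11 in wild type and -0.15 in IRAK4 KI (SE 0.16 each).

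Over the 6 LXR genes the median log2 change was -0.16 in wild type, with 2 positive and 4 negative, and -0.033 in IRAK4 KI, with 3 of each sign. In wild type 0 were higher and 2 lower without overlap (Lpcat3 and Lpl), beside 21.9% and 19.9% of all items. In IRAK4 KI 1 was higher (Lpcat3) and 1 lower (Nr1h3), shares near the 18.3% and 20.7% of all items. Leaving out each array in turn gave medians of -0.16 to -0.079 in wild type and -0.12 to 0.073 in IRAK4 KI. Macrophage markers were lower on the same wild type arrays: their summed intensity was 29155 to 31208 untreated and 24661 to 28990 with acLDL, and 6 of 8 tested markers had a negative change (median -0.23). In KI the sums were 31337 to 33992 untreated and 28796 to 39695 with acLDL, and 6 of 8 tested markers had a positive change (median 0.041). The largest part of these sums was Lyz2, at 16521.1 to 32663.3 over the 8 arrays. The part of this marker shift in the LXR values was not tested.

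**Figure D3:**
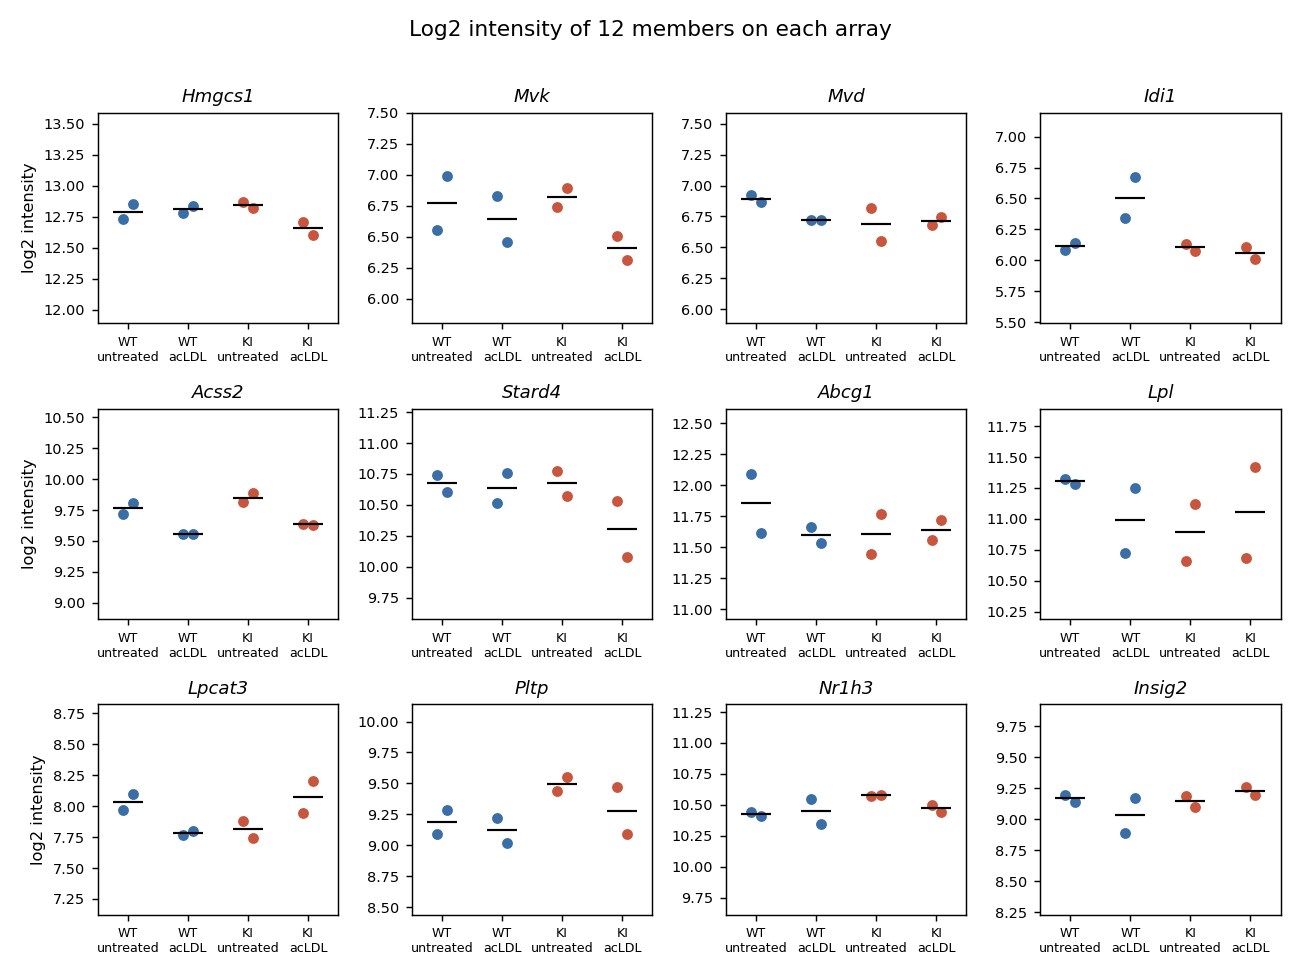
Log2 intensity of 12 members on each of the 8 arrays (points, 2 per group) with the group mean as a bar; every panel spans the same log2 range, so the heights of differences can be compared. Idi1 met the noise rule through the wild type acLDL arrays alone, so its higher values there are in part required by the rule. Acss2 is lower with acLDL in both genotypes, and Lpcat3 is lower with acLDL in wild type and higher in IRAK4 KI. No member passed the test for acLDL.

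The acLDL effects of the 2 genotypes were tested against each other, and 0 of 24 members differed (limma), where 0.0491% of all items did. At an unadjusted p under 0.05, 1 member had a more positive effect in IRAK4 KI (Lpcat3, beside 4.68% of all items) and 1 a more negative one (Idi1, beside 3.91% of all items). For Idi1 no size of the difference is given, since 3 of the 4 groups were not above noise and the other group is the one that brought it past the noise rule. The interval of Lpl, -0.42 to 1.37, was the one that reached beyond a 2-fold difference. The 2 acLDL comparisons share no arrays. The change had the same sign in both for 9 of 24 members (37.5%), of which 8 were lower in both, against 51.1% of all items, and for 1 of 6 LXR genes and 8 of 15 SREBP2 arm genes.

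Between genotypes, the member with the largest difference, with and without acLDL, was Insig1. Insig1, an SREBP2 target whose protein holds SCAP in the endoplasmic reticulum when sterols are plentiful, was higher on every KI array than on every wild type array. Its brighter probe read 71.8 and 66.4 in untreated wild type, 50.4 and 73.7 in wild type with acLDL, 130.2 and 135.1 in untreated KI and 107.8 and 141.1 in KI with acLDL. The lowest KI array was 107.8 and the highest wild type array 73.7. The log2 difference, KI minus wild type, was 0.64 without acLDL (SE 0.14, 95% interval 0.31 to 0.98, 1.56-fold, limma adjusted p = 0.200) and 0.67 with acLDL (SE 0.14, 95% interval 0.33 to 1.00, 1.59-fold, limma adjusted p = 0.0876), so neither comparison passed over all items.

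The mean of the 2 genotype comparisons was added after these values were seen. In it Insig1 was 1.58-fold higher in KI (log2 difference 0.66, SE 0.10, limma adjusted p = 0.0429), the 1 member of 24 to pass in a comparison that called 3.39% of all items, so the members' share was near the background. Genotypes that did not overlap over all 8 arrays were counted for 1 member higher in KI (Insig1) and 1 lower (Srebf2), beside 6.08% and 8.72% of all items. A second probe of Insig1, above noise on 6 of 8 arrays, read 42.1 and 50.7, 32.4 and 26, 93.4 and 72.7, and 44.9 and 64.7 in the same order of groups. It was higher in KI within each treatment without overlap, by 0.49 on the log2 scale without acLDL (SE 0.14, limma adjusted p = 0.209 with every probe on its own). With acLDL, where neither wild type array was above noise, it was at least 1.22-fold higher in KI (limma adjusted p = 0.153 with every probe on its own). A further probe was above noise on 0 of 8 arrays. The call on the brighter probe was lost on leaving out any single array other than wild type acLDL replicate 2 (limma adjusted p = 0.0595 to 0.143), while the log2 difference stayed between 0.58 and 0.74 on leaving out each of the 8. The call did not hold when background correction was skipped (limma adjusted p = 0.0814) or when dim probes were kept (limma adjusted p = 0.116). Over the settings that kept all 8 arrays the log2 difference ran from 0.52 to 0.98, so the size depends on the processing.

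Insig1 did not pass for acLDL in either genotype. The log2 change on the brighter probe was -0.10 in wild type (SE 0.14, limma adjusted p = 0.826) and -0.075 in IRAK4 KI (SE 0.14, limma adjusted p = 0.942). The second probe was lower with acLDL without overlap in both genotypes, at least 1.12-fold in wild type (limma adjusted p = 0.476 with every probe on its own) and by a log2 change of -0.36 in IRAK4 KI (SE 0.14, limma adjusted p = 0.776 with every probe on its own). Whether the probes differ in this change was not tested. Adipocyte markers also varied between the groups: their summed intensity was 172 to 341 in untreated and 252 to 999 in acLDL wild type arrays, and 616 to 1471 in untreated and 440 to 702 in acLDL KI arrays. Of 6 with a probe, 3 (Plin1, Retn and Fabp4) were above noise on 0 of 8 arrays, and 1 was above noise on all 8. Their part in the Insig1 difference was not tested.

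Srebf2 was chosen for its per-array values after they were seen. It read 823.3 and 901.2 in untreated wild type, 909.9 and 855.8 with acLDL, 715.4 and 722 in untreated KI and 727.2 and 630.9 with acLDL. All 4 KI arrays lay below all 4 wild type arrays. The log2 difference was -0.25 without acLDL (SE 0.11, limma adjusted p = 0.353) and -0.36 with acLDL (SE 0.11, limma adjusted p = 0.140), and it did not pass in the mean of both (-0.30, SE 0.080, limma adjusted p = 0.0688).

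**Figure D4:**
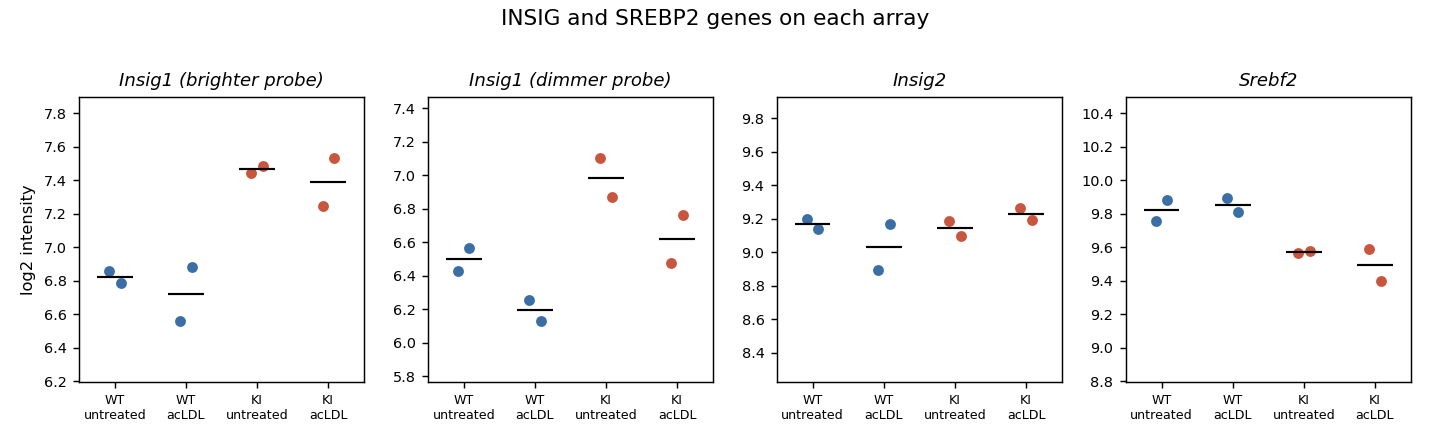
Log2 intensity of Insig1 (the 2 probes above noise), Insig2 and Srebf2 on each array (points, 2 per group) with group means as bars; every panel spans the same log2 range. The brighter Insig1 probe is higher and Srebf2 lower on all 4 KI arrays than on all 4 wild type arrays. Insig2 overlaps between the genotypes over the 8 arrays. Among the acLDL arrays alone it is higher in KI without overlap (log2 difference 0.20, limma adjusted p = 0.371), as were 24.1% of all items.

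In the planned genotype comparisons 0 of 24 members passed without acLDL (limma, 0.00982% of all items) and 0 of 24 with acLDL (limma, 0.216% of all items). At an unadjusted p under 0.05 there was 1 member without acLDL (Insig1, 15% of all items) and 3 with acLDL (Insig1, Srebf2 and Idi1, 21.8% of all items). The SREBP2 arm had a median log2 difference of 0.047 without and 0.054 with acLDL, the latter turning to -0.054 without wild type acLDL replicate 1. The LXR arm had medians of -0.035 and 0.061, with 3 of 6 genes positive without acLDL and 6 of 6 with it, beside 48.8% and 46.1% of all items. The median without acLDL had no stable sign: it was 0.079 without wild type untreated replicate 1, 0.032 without KI untreated replicate 1, 0.11 with every probe on its own and -0.22 with dim probes kept. With acLDL the 6 positive signs were not stable either. On leaving out single arrays the log2 difference fell to -0.077 for Nr1h3, -0.037 for Abcg1, -0.12 for Apoe, -0.034 for Pltp and -0.31 for Lpl. That of Lpcat3 stayed positive, and Lpcat3 was the 1 of 6 higher in KI without overlap, beside 24.1% of all items. The genotype comparisons share arrays with the acLDL comparisons and are not independent of them. Idi1 counts here through the same 2 wild type acLDL arrays that brought it past the noise rule.

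A wider list of 38 genes of sterol handling was examined beside the members. Of these, 32 had a probe and 26 were tested, and 0 of 26 passed in wild type, in IRAK4 KI or in the difference (limma). At an unadjusted p under 0.05, 2 were higher in wild type, beside 5.96% of all items, and 1 lower in IRAK4 KI, beside 2.88%. For the difference of effects, 1 was more positive and 3 more negative in IRAK4 KI, beside 4.68% and 3.91%. Cyp27a1, which makes the LXR ligand 27-hydroxycholesterol, read 280.5 and 295.7 in untreated KI and 220.5 and 180.5 with acLDL, without overlap (log2 change -0.45, SE 0.11, limma adjusted p = 0.646), while its 4 wild type arrays lay between 236.3 and 248.6 (log2 change 0.025). Erlin1, a membrane protein of the endoplasmic reticulum that takes part in sterol-controlled protein breakdown, read 233 and 229 in untreated wild type and 327.1 and 332.5 with acLDL (log2 change 0.44, SE 0.13, limma adjusted p = 0.272), while its KI groups overlapped, at 290 and 266.6 against 243 and 320.9 (log2 change 0.0069). Neither gene's groups overlapped where its change was the larger. Ncoa6, a coactivator of nuclear receptors, read 133.7 and 127.8 in untreated wild type and 163 and 158.9 with acLDL (log2 change 0.23, SE 0.096, limma adjusted p = 0.402), and 203.7 and 202.4 in untreated KI against 193.9 and 186.3 with acLDL (log2 change -0.078). Npc2, which hands cholesterol out of lysosomes, read 3514.5 and 3238.6 in untreated wild type and 2900.5 and 2753.9 with acLDL (log2 change -0.25, SE 0.11, limma adjusted p = 0.431), and 3006.3 and 2791.9 in untreated KI against 3359.1 and 2989.7 with acLDL (log2 change 0.13). Both genes stood apart between treatments in wild type, Ncoa6 higher and Npc2 lower with acLDL. In IRAK4 KI the groups of Npc2 overlapped. Those of Ncoa6 did not, and its change there had the opposite sign (SE 0.096, 95% interval -0.30 to 0.14, limma adjusted p = 0.897). The difference between the acLDL effects on Ncoa6 did not pass (limma adjusted p = 0.578). Between treatments, 41.8% of all items in wild type and 39% in IRAK4 KI did not overlap.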

How the data were processed

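Deposited intensity values of 8 Illumina mouse beadchips were used. They come from BeadStudio according to the submitters' processing notes, with no version of it named in the sources used here. Since 29.2% of values were below 0 and the sorted columns differed by at most 1.4 units, subtraction of background and quantile normalization by the authors are inferred. The scale is linear, with column medians of 23.7 to 23.8. Another 16 columns carry names that fit no label, and they were left out. A normexp correction (limma, offset 16) came before the log2 step and compresses the folds of dim probes. The noise level, 12.2, is the root mean square over values below 0. Probes had to exceed 3 times that on 2 or more arrays, which 11819 of 24613 did, and the brightest probe stood for a gene. The probe annotation is of another chip version than the labels name, so gene names rest on shared probe identifiers. The fit had 4 group means and 4 residual degrees of freedom (limma 3.58.1, R 4.3.3), before limma moderated the spread of each item toward that of all items. It had a threshold of 0.05 after Benjamini-Hochberg adjustment over all items. The fit was also run on simulated data with independent noise. That check required recovery only of changes larger than those of the members, so it does not speak to changes of their size. The number of arrays limits the precision.

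The members and lists were chosen with earlier results of these data known. Values per array are given for members with the 2 largest acLDL changes, or differences between them, in their role group, and for the 4 other pathway genes with the smallest p. Other genes with such values were chosen after their values were seen. Promoters are from RefSeq (GRCm38.p6), and plots used matplotlib 3.10.9. Alternatives were another offset, no background correction, other normalizations and filters, all probes singly, a fit with a variance trend, fits of just the groups compared, a replicate block and leaving out each array.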

Additional observations from a re-analysis of the deposited data

Results flagged for a closer look

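Lpcat3 was picked out because both acLDL arrays lay below both untreated arrays in wild type and above both in IRAK4 KI. The difference of the acLDL effects, KI minus wild type, was 0.51 on the log2 scale. It lay between 0.38 and 0.64 on leaving out each array in turn. The pattern that picked the gene fixes its sign there, so the kept sign is no support. Over the other settings it lay between 0.44 and 0.62, from the same values. It passed in none of the 18 alternatives run (limma adjusted p = 0.554 as reported). With 2 arrays in a group, no group was large enough for a check of single outlying arrays.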

How the results depend on the processing

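In the 5 planned comparisons 0 members passed under each of the 19 alternatives (18 for the difference of effects). In the added mean of both genotype comparisons the count of 1 fell to 0 if background correction or the filter was dropped, was 2 with a variance trend (Insig1 and Srebf2, the latter at adjusted p = 0.0462), and 0 to 1 on leaving out each array. The median log2 change of the LXR arm in wild type was -0.068 without a filter and -0.24 with every probe on its own (-0.16 to -0.079 on leaving out each array). In IRAK4 KI it turned to 0.14 without a filter, was -0.089 with every probe, and ran from -0.12 to 0.073 without single arrays. Its difference was 0.15 with every probe, and 7.0e-05 to 0.17 without single arrays. Filters and probe rules change which genes are in a median. The median of the SREBP2 arm ran from -0.16 to 0.046 in wild type, from -0.097 to 0.0044 in IRAK4 KI and from -0.11 to 0.046 for the difference without single arrays. The count of all items called ranged over alternatives from 2 to 30 in wild type (18 as reported), 0 to 6 in IRAK4 KI (2), 1 to 6 for the difference (5), 0 to 1 between untreated genotypes (1) and 4 to 61 between acLDL genotypes (22), and from 0 to 707 for the added mean (345); the cause was not tested. With the replicate number as a block, 0 members passed in the 5 planned comparisons and 1 in the added mean. Deviations of same-numbered arrays correlated at -0.31 to 0.29 between groups, so the numbers were not taken to pair samples. For Mvk, Idi1 and the second Insig1 probe, signal near the noise limits what can be read.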
